A study of Mus musculus with 41 samples.

Results

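Solute carriers are membrane proteins that move amino acids, sugars, ions, metals, vitamins and nucleotides across the plasma membrane and the membranes of organelles, and their gene symbols begin with Slc and a family number. The members described here were chosen by their expression level: they are the symbols of the count table that begin with Slc and a digit and reach a mean of 5 CPM (counts per 1000000 counts of the library) in at least 1 of 5 groups of mouse microglia. Of 376 such symbols among 24537 genes, 183 were members. Another 184 stayed below 5 CPM in every group, 40 of them without a count in the 17 microglial libraries, and 9 that reached the level were left out by name together with 1 that did not (Slc2a1, Slc2a3, Slc2a5, Slc16a1, Slc16a3, Slc40a1, Slc11a1, Slc11a2, Slc7a11 and Slc24a4). The members thus leave out the main glucose and lactate carriers, the cystine carrier and the best known iron carriers. Just inside the threshold were Slc6a12 with 5.09 CPM at 7 d with TGFβ, Slc7a3 with 5.34 CPM at 6 h and Slc25a14 with 5.48 CPM at 24 h. Just outside were Slc25a43 with 4.55 CPM at 24 h, Slc3a1 with 4.52 CPM ex vivo and Slc37a1 with 4.51 CPM at 7 d. Of the members, 130 reached 5 CPM in all 5 groups and 20 in only 1 group, which was ex vivo for 12, 7 d with TGFβ for 5, 6 h for 2 and 24 h for 1. Because the members were selected on these levels, the levels are given as a description, and a member that passes through 1 group had to differ from the others. All 183 passed the filter on low counts of the tests. The scaffold gene Slc9a3r1, the genes Slc7a6os and Slc4a1ap and the pseudogene Slc2a4rg-ps match the symbol but are not known as carriers. Roles below go by family number, so counts and sums of roles include them. Slc9a3r1 and Slc4a1ap fall among the ion exchangers, Slc7a6os among the amino acid carriers and Slc2a4rg-ps among the sugar carriers.

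Most carriers either exchange 1 solute for another or draw on the gradient of sodium or protons that the cell's pumps build up. Several work in pairs. The heavy chain Slc3a2 (CD98hc) holds the light chains of family Slc7 in the plasma membrane, and these exchange essential amino acids such as leucine for amino acids already in the cell. In macrophages a further set of carriers sits in lysosomes, where it returns amino acids, nucleosides, haem and other products of digestion to the cytosol.

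Live CD11b+ CD45Low cells, a gate for microglia, were sorted from brains of C57Bl6 mice. Poly(A) RNA was sequenced directly after sorting (ex vivo, 5 libraries) and after culture in DMEM/F12 with 5% FBS and daily IL-34, which signals through Csf1r and keeps microglia alive, for 6 h (2 libraries), 24 h (3 libraries, of which replicate 2 is labelled 22 h) or 7 d (5 libraries). TGFβ was added to a further 2 cultures kept for 7 d. Whole brain lysate gave 4 libraries. All groups come from C57Bl6 mice, and the labels used here name no transgene. The labels do not say that replicates came from separate animals, so the p-values measure the spread between these libraries, which may be technical. Libraries held 11.6 to 28.8 M counts (M, 1000000). The 4 microglial markers P2ry12, Tmem119, Cx3cr1 and Csf1r summed to 27972 to 31394 CPM ex vivo, to 2496 to 7113 CPM over the cultures and to 166 to 223 CPM in lysate. Libraries 2 and 3 of the 7 d cultures stood apart from libraries 1, 4 and 5: the correlation across genes was r = 0.993 between them and 0.957 to 0.979 against libraries 1, 4 and 5. Ex vivo library 3 held the highest summed level of 6 astrocyte markers, 47.1 CPM against an ex vivo median of 7.03 CPM and a lysate median of 1336 CPM. A list of 4 neutrophil markers summed to 3.37 to 181 CPM ex vivo, to at most 9.75 CPM in a culture library and to at most 0.578 CPM in lysate. Levels below are CPM with TMM-scaled library sizes. Differences were tested with edgeR's quasi-likelihood F test and called at a Benjamini-Hochberg adjusted p under 0.05 over all genes tested, which were 13840 in the microglial model. Values after ± are standard errors of log2 fold changes.

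Culture changed most members. At 6 h 59 of 183 were higher and 89 lower than ex vivo, 32.2% and 48.6%, against 31.2% and 36.8% of all genes tested and 35.8% and 37.6% of the genes that reach 5 CPM in a microglial group. At 24 h 57 were higher and 80 lower, 31.1% and 43.7%, beside 29.6% and 33.1% of all genes and 34.7% and 32.6% of those at 5 CPM. At 7 d 60 were higher and 74 lower, 32.8% and 40.4%, beside 34.8% and 35.7% of all genes and 40.2% and 34.4% of those at 5 CPM. At each of these times the share called lower lay above its background, while the share called higher was near it or below it. The rule itself favours lower levels in culture for the 12 members that passed it only through the ex vivo group. It favours higher levels at 6 h for 2 members and at 24 h for 1. The excess of lower calls over all 183 is therefore partly built in. The median log2 fold change against ex vivo was -0.41 at 6 h, -0.18 at 24 h and -0.12 at 7 d, beside -0.17, -0.06 and -0.02 over all genes tested. Among the 130 members at 5 CPM or more in all 5 groups, 49 were higher and 51 lower at 6 h, 37.7% and 39.2%, beside 43.2% and 28.3% of the genes held to the same level. At 24 h they were 48 and 45, beside 40.3% and 26.5%, and at 7 d 49 and 45, beside 41.2% and 32.1%. For these 130 the median at 6 h was 0.03, beside 0.25 for the genes of the same level. Scaling moves the 6 h values: TMM factors of the 6 h libraries were the lowest of the microglial groups, and with column totals in their place all genes shifted by a median of -0.40 on the log2 scale, giving 41 members higher and 102 lower, a share higher of 28.7% of the calls in place of 39.9%. With the deposited TPM the same counts were 41 and 101.

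Between the times, 52 members were higher and 46 lower at 24 h than at 6 h, beside 22.0% and 19.8% of all genes and 25.4% and 23.4% of those at 5 CPM. From 24 h to 7 d 63 were higher and 43 lower, beside 27.2% and 21.6% of all genes and 30.1% and 23.5% of those at 5 CPM. The 24 h against 6 h split also depends on scaling, with 93 higher and 23 lower on column totals (80.2% of calls higher in place of 53.1%) and 77 and 28 on TPM. At 7 d against 24 h TPM gave 47 higher and 56 lower. At 7 d against ex vivo TPM gave 49 higher and 92 lower (34.8% of calls higher in place of 44.8%).

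The summed level of all members was 14297 CPM ex vivo, 20137 CPM at 6 h, 13587 CPM at 24 h and 13716 CPM at 7 d. On this TMM scaling the sum was highest in the 6 h libraries. The TMM factors were 0.784 and 0.814 at 6 h and 1.01 to 1.13 ex vivo. Column totals would therefore lower the 6 h sums, also those by role, and raise those ex vivo. A few genes made up much of the sum: the 10 highest members held 52.7% of it at 6 h and 34.4% ex vivo. Slc7a8, Slc29a3 and Slc36a1 led the list ex vivo, Slc43a2, Slc3a2 and Slc23a2 at 6 h, and Slc6a6 at 24 h, 7 d and 7 d with TGFβ. By role, the 32 amino acid and peptide carriers summed to 4071 to 4917 CPM over the ex vivo libraries and to 8869 to 9352 CPM at 6 h. The 18 zinc carriers summed to 899 to 1003 CPM ex vivo and to 1695 to 1825 CPM at 6 h. The 20 nucleotide sugar carriers stayed within 981 to 1177 CPM in all 17 libraries on this scaling.

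**Figure D1:**
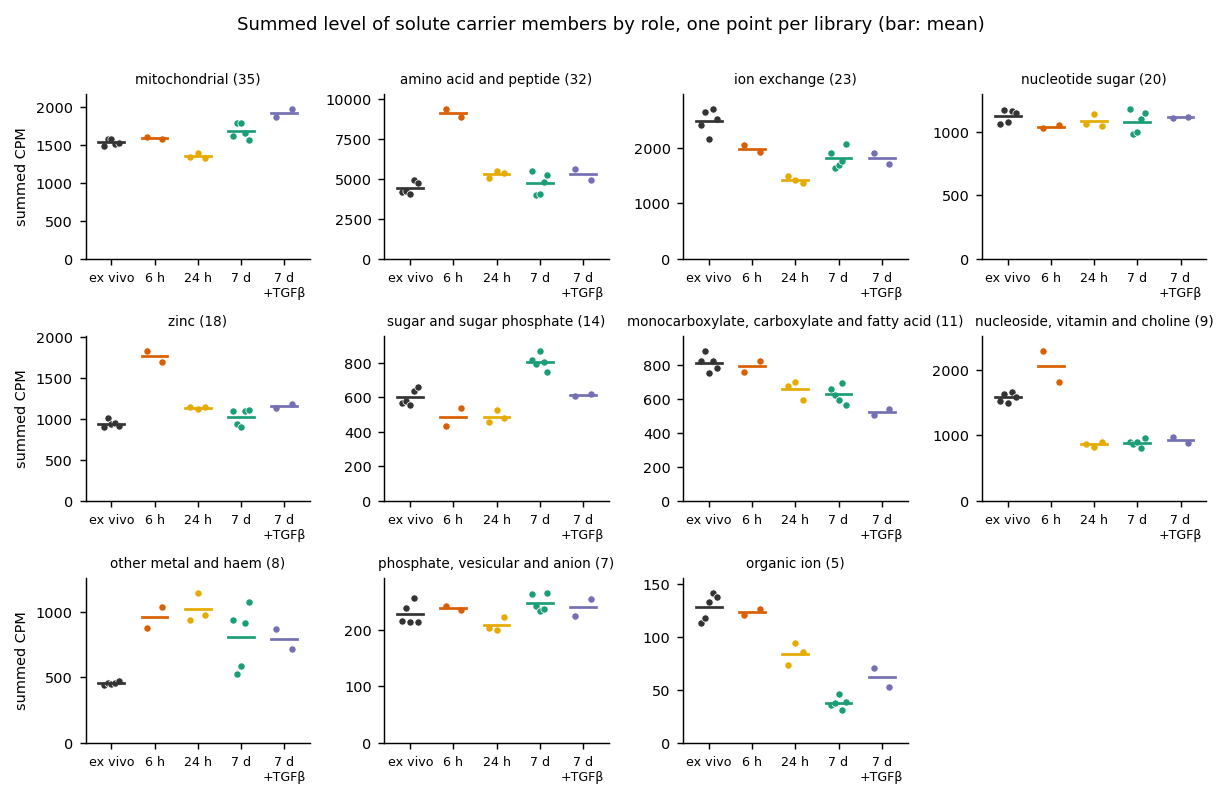
Summed CPM of the members of each role (number of members in brackets) in every microglial library, with TMM-scaled library sizes; points are libraries, bars are group means and each vertical axis starts at 0. Amino acid and zinc carriers peaked in the 2 libraries at 6 h, organic ion carriers were lowest at 7 d, and nucleotide sugar carriers stayed within 981 to 1177 CPM.

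Amino acid carriers changed in opposite directions within 1 family. Of the 32 carriers of amino acids and peptides, Slc7a6os included, 14 were higher and 11 lower at 6 h, and 9 higher and 15 lower at 7 d. Counts of a role are descriptions, to be read against 31.2% and 36.8% of all genes higher and lower at 6 h and 34.8% and 35.7% at 7 d, and no role was tested against other genes. Slc3a2, the shared heavy chain, rose at every time in culture without TGFβ. It was 302, 245, 289, 278 and 288 CPM ex vivo, 1831 and 1696 CPM at 6 h, 879.7, 1044 and 1076 CPM at 24 h and 558, 456, 473, 585 and 658 CPM at 7 d. No library of any of these 3 culture times overlapped the ex vivo libraries, and the 6 h libraries were the highest. The log2 fold change was 2.65 ± 0.14 at 6 h (edgeR adjusted p = 1.0e-10) and 0.96 ± 0.12 at 7 d (edgeR adjusted p = 1.7e-06).

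Its light chains differed among themselves. Slc7a5 (LAT1), an exchanger of large neutral amino acids, was 97.3, 81.1, 82.9, 143 and 96.998 CPM ex vivo, 238 and 179.8 CPM at 6 h, 48.2, 41.1 and 48.1 CPM at 24 h and 11.7, 19.3, 10.8, 17.3 and 6.32 CPM at 7 d. The 6 h libraries lay above all ex vivo libraries, and every 24 h and 7 d library lay below them. The rise at 6 h (1.06 ± 0.38, edgeR adjusted p = 0.023) was lost without 6 h replicate 1 (adjusted p = 0.16) and with column totals (adjusted p = 0.16), and also on TPM. The fall at 7 d was -2.93 ± 0.33 (edgeR adjusted p = 1.1e-06). Slc7a8 (LAT2), with a similar range of substrates, was the most abundant member ex vivo at 964, 880.4, 916, 1116 and 1046 CPM. It was lowest at 24 h, with 264, 376 and 253 CPM, and stood at 621, 834, 804, 639 and 540.4 CPM at 7 d. The 24 h libraries lay below every other group, and the log2 fold changes were -1.73 ± 0.18 at 24 h against ex vivo (edgeR adjusted p = 2.4e-07) and 1.21 ± 0.17 at 7 d against 24 h (edgeR adjusted p = 2.7e-05). Slc7a7 (y+LAT1), which exports cationic amino acids, fell from 163, 159.7, 153, 197 and 194 CPM ex vivo to 25.3, 32.8 and 22.3 CPM at 24 h and 53.8, 37.7, 40.6, 47.6 and 49.7 CPM at 7 d, without overlap (-1.92 ± 0.13 at 7 d, edgeR adjusted p = 9.6e-10). Slc7a6 (y+LAT2), its close relative, was higher at 6 h (0.92 ± 0.18, edgeR adjusted p = 1.9e-04) and was not called at 7 d (-0.02 ± 0.14).

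Slc43a2 and Slc16a10, carriers of large neutral and aromatic amino acids that work without Slc3a2, rose. Slc43a2 (LAT4) was 235, 211, 199, 292 and 363 CPM ex vivo, 2264 and 1875 CPM at 6 h, 592, 679 and 669 CPM at 24 h and 746, 358, 437, 574 and 785 CPM at 7 d. It was the most abundant member at 6 h, where both libraries exceeded all others (2.99 ± 0.30, edgeR adjusted p = 1.4e-07), and 1 library at 7 d, replicate 2, overlapped the ex vivo range (1.16 ± 0.24 at 7 d, edgeR adjusted p = 4.5e-04). Slc16a10 (TAT1), a carrier of aromatic amino acids that the family number places with the monocarboxylate carriers, went from 49.97, 46.9, 38.5, 39.04 and 27.96 CPM ex vivo to 511 and 555 CPM at 6 h, 439, 435 and 339 CPM at 24 h and 282, 262, 229, 328 and 239 CPM at 7 d. All culture libraries lay above all ex vivo libraries. Its log2 fold changes were 3.72 ± 0.19 at 6 h (edgeR adjusted p = 5.4e-11) and 2.73 ± 0.16 at 7 d (edgeR adjusted p = 3.0e-10).

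Other carriers of amino acids differed in their timing. Slc38a2 (SNAT2), known to be induced when amino acids run short, was 242, 288, 209, 307 and 217 CPM ex vivo and 792 and 812 CPM at 6 h. At 7 d it was 263, 111, 93.6, 225 and 201 CPM. The 6 h libraries stood above all others (1.67 ± 0.28, edgeR adjusted p = 5.4e-05), and 7 d libraries overlapped the ex vivo range (-0.50 ± 0.23, edgeR adjusted p = 0.058, not called). Slc1a5 (ASCT2), a glutamine exchanger, was 7.89, 7.81, 9.47, 8.88 and 10.4 CPM ex vivo, 23.2 and 40.5 CPM at 6 h, 81.3, 64.4 and 62.5 CPM at 24 h and 24.2, 30.96, 26.4, 21.4 and 21.6 CPM at 7 d. Its peak was at 24 h, above every library of the other groups (2.96 ± 0.18 against ex vivo, edgeR adjusted p = 4.7e-10). Slc36a4 (PAT4) rose later, from 14.2 ± 3.71 CPM ex vivo (mean ± SD, n = 5) to 39.5 ± 4.50 CPM at 24 h (n = 3; 1.48 ± 0.22, edgeR adjusted p = 2.2e-05), and was not called at 6 h (0.22 ± 0.26). Slc38a10 was not called at 24 h or 7 d against ex vivo (0.06 ± 0.11 at 7 d).

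Slc1a3 (GLAST), a glutamate carrier, all but disappeared. It was 167, 217, 202, 142 and 171 CPM ex vivo, 10.1 and 4.37 CPM at 6 h, 1.66, 1.45 and 1.72 CPM at 24 h and 6.74, 5.45, 6.06, 6.49 and 6.10 CPM at 7 d. Every culture library lay far below every ex vivo library (-6.80 ± 0.38 at 24 h, edgeR adjusted p = 2.3e-10, and -4.87 ± 0.27 at 7 d, edgeR adjusted p = 1.6e-10). The other glutamate carrier, Slc1a2 (GLT-1), best known from astrocytes, was a member only through the ex vivo group: it was 1.72, 20.3, 109, 14.97 and 0.445 CPM there and at most 0.398 CPM in any culture library. Its highest library was ex vivo replicate 3, the library with the highest astrocyte markers, and the part of those cells in its level was not tested. Slc1a3 was not highest in that library.

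The promoter of Slc1a3 is printed because its open chromatin also differed. It is the 250 bases before the RefSeq start (GRCm38.p6), 5′ to 3′ on the minus strand, chr15:8710808-8711057, with the 101 bases under the ex vivo ATAC peak in capitals. ATAC marks open chromatin (1 of the 2 cultures behind the pooled 7 d list is labelled 8 d), and H3K27ac is a histone mark of active promoters and enhancers. The 7 d ATAC list has no peak there, and H3K27ac peaks cover all 250 bases ex vivo and 26 at 7 d. These values concern the window alone. Within 10 kb of the gene body the pooled lists had 19 ATAC peaks ex vivo, 5 of them only there. At 7 d they had 17, 3 of them only there.
Slc1a3: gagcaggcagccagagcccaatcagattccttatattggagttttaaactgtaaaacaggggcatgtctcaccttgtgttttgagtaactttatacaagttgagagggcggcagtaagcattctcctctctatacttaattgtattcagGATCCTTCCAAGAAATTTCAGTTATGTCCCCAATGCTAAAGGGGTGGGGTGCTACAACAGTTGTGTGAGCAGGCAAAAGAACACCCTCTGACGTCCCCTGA

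Slc36a1 and Slc38a9, both found on lysosomes, were lower. Slc36a1 (PAT1), which moves small neutral amino acids out with protons, was 428, 561, 476, 579 and 676 CPM ex vivo, 144 and 157 CPM at 6 h, 136, 162 and 138 CPM at 24 h and 180.4, 80.8, 98.7, 122 and 173 CPM at 7 d. Slc38a9, which senses arginine for the kinase mTORC1, was 100.4, 148, 113, 116 and 100.4 CPM ex vivo, 22.5 and 25.97 CPM at 6 h, 31.9, 34.2 and 33.1 CPM at 24 h and 42.3, 34.04, 37.2, 32.7 and 50.5 CPM at 7 d. In both genes every culture library lay below every ex vivo library, with log2 fold changes at 7 d of -2.06 ± 0.22 for Slc36a1 (edgeR adjusted p = 4.0e-07) and -1.55 ± 0.15 for Slc38a9 (edgeR adjusted p = 9.8e-08). Slc7a1 (CAT1), which takes up arginine and lysine at the plasma membrane, had a short peak: 26.95, 24.4, 24.4, 48.8 and 25.8 CPM ex vivo, 323 and 279 CPM at 6 h, 77.6, 74.9 and 83.05 CPM at 24 h and 38.3, 76.8, 52.5, 46.8 and 17.4 CPM at 7 d. Only 6 h stood clear of all other libraries (3.33 ± 0.41, edgeR adjusted p = 2.7e-06). Slc38a1 (SNAT1), a sodium-driven carrier of glutamine, was lowest at 24 h, with 77.4, 73.9 and 80.1 CPM against 156, 210.0, 159, 197 and 190.4 CPM ex vivo (-1.24 ± 0.12, edgeR adjusted p = 1.2e-07).

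The taurine carrier Slc6a6 and the creatine carrier Slc6a8 rose and stayed high. Slc6a6 was 303, 377, 307, 413 and 367 CPM ex vivo, 991 and 1128 CPM at 6 h, 1131, 1095 and 1181 CPM at 24 h and 1715, 751, 751, 1417 and 1607 CPM at 7 d. No culture library overlapped the ex vivo range (1.82 ± 0.21 at 7 d, edgeR adjusted p = 1.1e-06), and libraries 2 and 3 were the lowest at 7 d. Slc6a8 was 15.7, 11.8, 10.1, 18.1 and 13.7 CPM ex vivo and 84.1 and 87.2 CPM at 6 h. At 7 d it was 140.4, 54.7, 56.5, 103 and 116 CPM, again without overlap and again lowest in libraries 2 and 3 (2.76 ± 0.25, edgeR adjusted p = 5.7e-08).

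Peptide carriers split. Slc15a3 (PHT2), which moves histidine and short peptides out of lysosomes, went from 248, 151, 184, 276 and 209 CPM ex vivo to 1119 and 1021 CPM at 6 h and 605, 647 and 536 CPM at 24 h. Both times lay above all ex vivo libraries (2.32 ± 0.22 at 6 h, edgeR adjusted p = 9.4e-08), and at 7 d it was 296, 415, 455, 263 and 267 CPM, overlapping them (0.67 ± 0.18, edgeR adjusted p = 0.0036). Without 7 d libraries 2 and 3, its highest at that time, the 7 d call was lost (adjusted p = 0.064), as it was on TPM without a filter (adjusted p = 0.06). Slc15a2 (PEPT2), a peptide carrier of the plasma membrane, fell from 23.5, 34.9, 22.8, 20.7 and 37.9 CPM ex vivo to 4.97, 2.13, 3.57, 4.63 and 6.06 CPM at 7 d (-2.71 ± 0.28, edgeR adjusted p = 2.3e-07). Slc43a3, which its family number places here although it is known as a carrier of purine bases, was 1.77, 18.1, 10.7, 3.52 and 0.981 CPM over the 7 d libraries against 5.15, 5.19, 3.95, 5.52 and 4.11 CPM ex vivo. Libraries 2 and 3 lay above and the other 3 below the ex vivo range, and the change was not called (0.56 ± 0.57) but was -1.18 (adjusted p = 0.0089) without libraries 2 and 3.

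**Figure D2:**
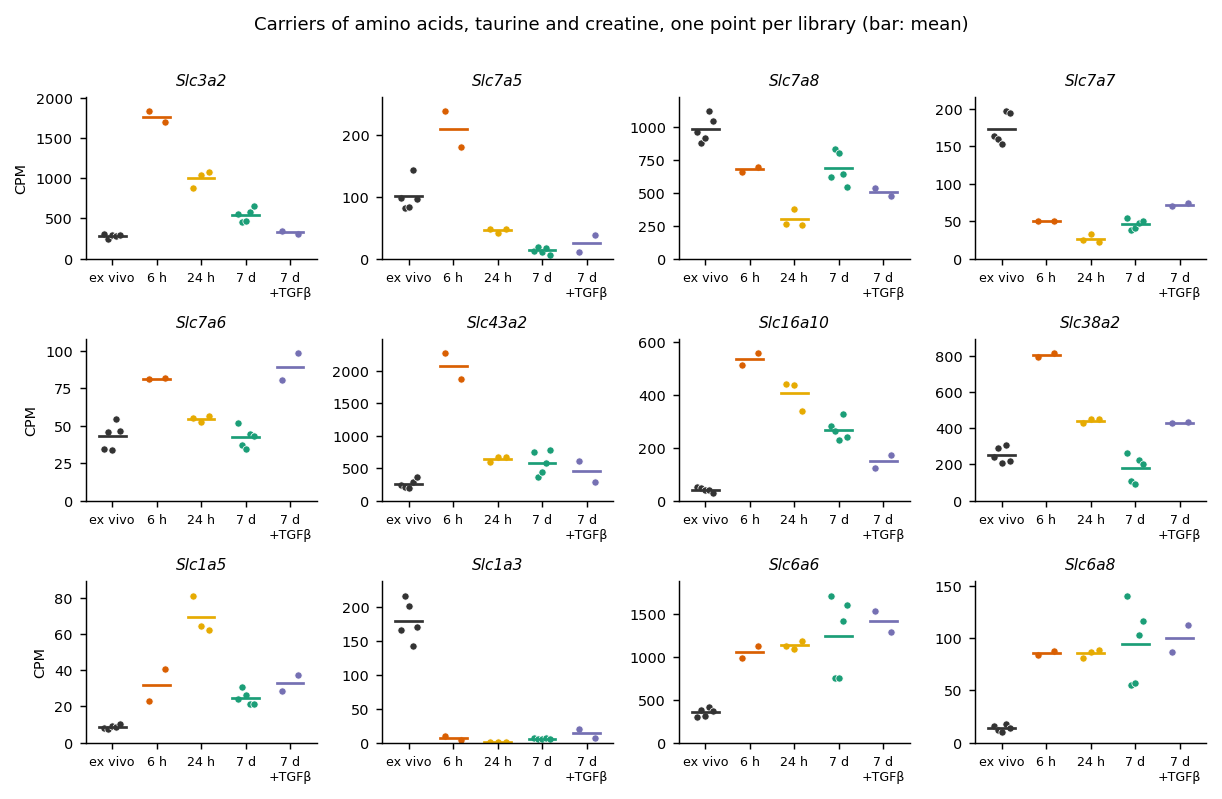
CPM of 12 carriers of amino acids, taurine and creatine in each microglial library (points, with group means as bars; vertical axes start at 0). Slc3a2, Slc43a2 and Slc38a2 peaked in the 2 libraries at 6 h, Slc1a5 at 24 h, and Slc1a3 and Slc7a7 were highest in the 5 ex vivo libraries.

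Metal and haem carriers changed over wide ranges. Slc48a1 (HRG1), which passes haem from the phagolysosome to the cytosol, was 44.1, 36.6, 45.7, 38.03 and 47.97 CPM ex vivo, 667 and 819 CPM at 6 h, 641, 828 and 699 CPM at 24 h and 486, 220.1, 257, 499 and 619 CPM at 7 d. All culture libraries lay above all ex vivo libraries, and 7 d libraries 2 and 3 were the lowest of the cultures without TGFβ. The log2 fold change was 4.13 ± 0.28 at 6 h (edgeR adjusted p = 1.8e-09) and 3.29 ± 0.25 at 7 d (edgeR adjusted p = 5.1e-09).

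Slc41a2, a carrier of magnesium, was close to absent ex vivo, with 0.0928, 0, 0.161, 0.0716 and 0 CPM. It was 13.03 and 14.5 CPM at 6 h, 11.7, 14.8 and 14.6 CPM at 24 h and 39.6, 28.7, 24.3, 33.7 and 35.3 CPM at 7 d. Each culture time lay above the ex vivo libraries, and 7 d lay above 24 h in all 5 libraries (1.24 ± 0.24, edgeR adjusted p = 4.8e-04). The chromatin of its promoter also differed. The pooled ATAC and H3K27ac lists had a peak there at 7 d and none ex vivo, while the ex vivo list of H3K4me2, a mark of promoters and enhancers, covered it. Of the 250 bases before its RefSeq start, 139 lay under the 7 d ATAC peak and all 250 under the 7 d H3K27ac peak, and 220 of them lie inside the annotated gene body. The gene runs from 83230848 to 83338037 on chromosome 10 by RefSeq (GRCm38.p6, the assembly that mm10 names), so that the start used here lies within it.

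Folate and lysosomal carriers of family Slc46 fell by 6 h and partly returned. Slc46a1 (PCFT), the proton-coupled folate carrier, was 116, 97.6, 111, 111 and 117 CPM ex vivo, 3.63 and 2.07 CPM at 6 h, 6.23, 6.91 and 7.17 CPM at 24 h and 68.1, 37.9, 42.9, 55.6 and 65.6 CPM at 7 d. The 4 groups did not overlap one another. The log2 fold change was -5.27 ± 0.29 at 6 h (edgeR adjusted p = 1.2e-10) and 3.00 ± 0.21 from 24 h to 7 d (edgeR adjusted p = 1.4e-08). Slc46a3, a lysosomal relative, went from 131, 148, 133, 161 and 140.1 CPM ex vivo to 4.23 and 4.14 CPM at 6 h and 41.97, 28.5, 43.1, 37.9 and 51.3 CPM at 7 d, again without overlap (-1.81 ± 0.23 at 7 d against ex vivo, edgeR adjusted p = 3.4e-06). A list of 5 markers of border macrophages, the macrophages of the brain's vessels and linings (Mrc1, Pf4, Cd163, Lyve1 and Cbr2), was also low early and higher at 7 d. It summed to 7.27 to 98.9 CPM ex vivo, 1.87 to 3.18 CPM at 6 h with Cbr2 at 0, 1.03 to 2.60 CPM at 24 h and 53.997 to 117 CPM at 7 d. Its part in the levels of Slc46a3, Slc9a9, Slc13a3 and other members of this course was not tested. The copper importer Slc31a1 (CTR1) rose over the week, from 41.99, 61.3, 47.97, 35.9 and 36.8 CPM ex vivo to 121, 126 and 109.6 CPM at 24 h and 178, 105, 107, 163 and 169 CPM at 7 d. Both times lay above all ex vivo libraries (1.69 ± 0.18 at 7 d, edgeR adjusted p = 2.7e-07).

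Of 18 zinc carriers of families Slc30 and Slc39, 8 were higher and 7 lower at 6 h, beside 31.2% and 36.8% of all genes and 148 of 183 members called, and 4 were higher and 4 lower at 7 d. Slc30a1 (ZnT1), which exports zinc from the cell and is known to be induced by it, was 29.9, 31.3, 30.9, 19.6 and 21.6 CPM ex vivo, 301 and 325 CPM at 6 h, 99.8, 102 and 119.9 CPM at 24 h and 34.9, 29.96, 27.1, 32.4 and 38.6 CPM at 7 d. The 6 h libraries exceeded all others and the 24 h libraries exceeded ex vivo and 7 d (3.55 ± 0.18 at 6 h, edgeR adjusted p = 3.9e-11), and 7 d was not called (0.29 ± 0.14). Slc39a14 (ZIP14), an importer of zinc and iron, had the same shape, with 30.2, 34.9, 31.6, 41.8 and 36.2 CPM ex vivo, 334 and 255 CPM at 6 h and 46.6, 53.9, 34.3, 51.8 and 32.8 CPM at 7 d (3.07 ± 0.23 at 6 h, edgeR adjusted p = 3.7e-09). Slc39a4 (ZIP4), another zinc importer, was 7.38, 9.06, 6.25, 8.31 and 6.34 CPM ex vivo, 103 and 85.5 CPM at 6 h and 16.2, 2.37, 3.57, 15.5 and 15.2 CPM at 7 d, where libraries 2 and 3 lay below the ex vivo range and the other 3 above it. Slc39a8 (ZIP8) moved the other way: 38.4, 46.9, 35.7, 27.5 and 28.5 CPM ex vivo, 2.39 and 2.30 CPM at 6 h, 4.99, 4.61 and 5.11 CPM at 24 h and 43.3, 33.9, 28.9, 48.3 and 33.5 CPM at 7 d. The 6 h and 24 h libraries lay below all others (-3.91 ± 0.28 at 6 h, edgeR adjusted p = 2.0e-09), and 7 d overlapped ex vivo (0.08 ± 0.16, not called). Slc39a7 (ZIP7), which releases zinc from the endoplasmic reticulum and was on average the most abundant of the 18, had group means of 134 to 225 CPM, highest at 6 h. Slc39a1 (ZIP1), an importer at the plasma membrane, was higher at 7 d than ex vivo (0.74 ± 0.08, edgeR adjusted p = 7.9e-07).

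Of 23 members of the ion exchanger families 3 were higher and 11 lower at 24 h than ex vivo, beside 29.6% and 33.1% of all genes. At 7 d 8 were higher and 10 lower, beside 34.8% and 35.7% of all genes. Those higher at 7 d include Slc9a3r1 and Slc4a1ap, which are not known as carriers. Slc9a9 (NHE9), a sodium-proton exchanger of endosomes, was 194, 206, 199.5, 226 and 189 CPM ex vivo, 5.87 and 2.47 CPM at 6 h, 2.86, 3.03 and 3.27 CPM at 24 h and 69.6, 89.4, 97.3, 95.3 and 75.02 CPM at 7 d. The early cultures lay far below the other libraries and 7 d lay between (-6.05 ± 0.30 at 24 h against ex vivo, edgeR adjusted p = 3.5e-11, and 4.80 ± 0.28 at 7 d against 24 h, edgeR adjusted p = 2.2e-09). Slc24a3 (NCKX3), a potassium-dependent sodium-calcium exchanger, was 49.3, 46.5, 48.8, 64.03 and 56.4 CPM ex vivo, 35.4 and 33.1 CPM at 6 h, 4.05, 3.67 and 2.32 CPM at 24 h and 48.5, 54.8, 48.1, 48.2 and 43.7 CPM at 7 d. Only 24 h stood far off, below every other library (-3.35 ± 0.21 against 6 h, edgeR adjusted p = 4.1e-08), and 7 d was not called against ex vivo (-0.12 ± 0.13). Slc12a2 (NKCC1), which brings chloride into the cell with sodium and potassium, went from 370.2, 385, 287, 329.8 and 261 CPM ex vivo to 49.1 and 50.2 CPM at 6 h and 182, 221, 283, 134 and 249 CPM at 7 d. The 6 h libraries were the lowest of all (-2.72 ± 0.29, edgeR adjusted p = 3.5e-07), and 7 d overlapped ex vivo at the edge. Slc12a9, a relative of this cotransporter, fell from 279, 216, 219, 292 and 294 CPM ex vivo to 26.6 and 22.6 CPM at 6 h and 75.9, 52.9, 66.98, 61.8 and 74.1 CPM at 7 d, without overlap (-1.97 ± 0.13, edgeR adjusted p = 9.1e-10). Slc8a1 (NCX1), which exchanges sodium for calcium, was 305, 389.7, 269, 337 and 312 CPM ex vivo and 64.4 and 50.3 CPM at 6 h, its lowest level (-2.49 ± 0.26, edgeR adjusted p = 2.5e-07). Bicarbonate carriers moved apart. The sodium-bicarbonate carrier Slc4a7 (NBCn1) was lower at 7 d (-0.93 ± 0.17, edgeR adjusted p = 1.1e-04), and the chloride-bicarbonate exchanger Slc4a2 (AE2) went from 90.1, 68.2, 75.9, 94.2 and 111 CPM ex vivo to 358 and 381 CPM at 6 h and 177, 120.5, 118, 174 and 178 CPM at 7 d, above ex vivo in every culture library (0.81 ± 0.15 at 7 d, edgeR adjusted p = 1.2e-04).

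**Figure D3:**
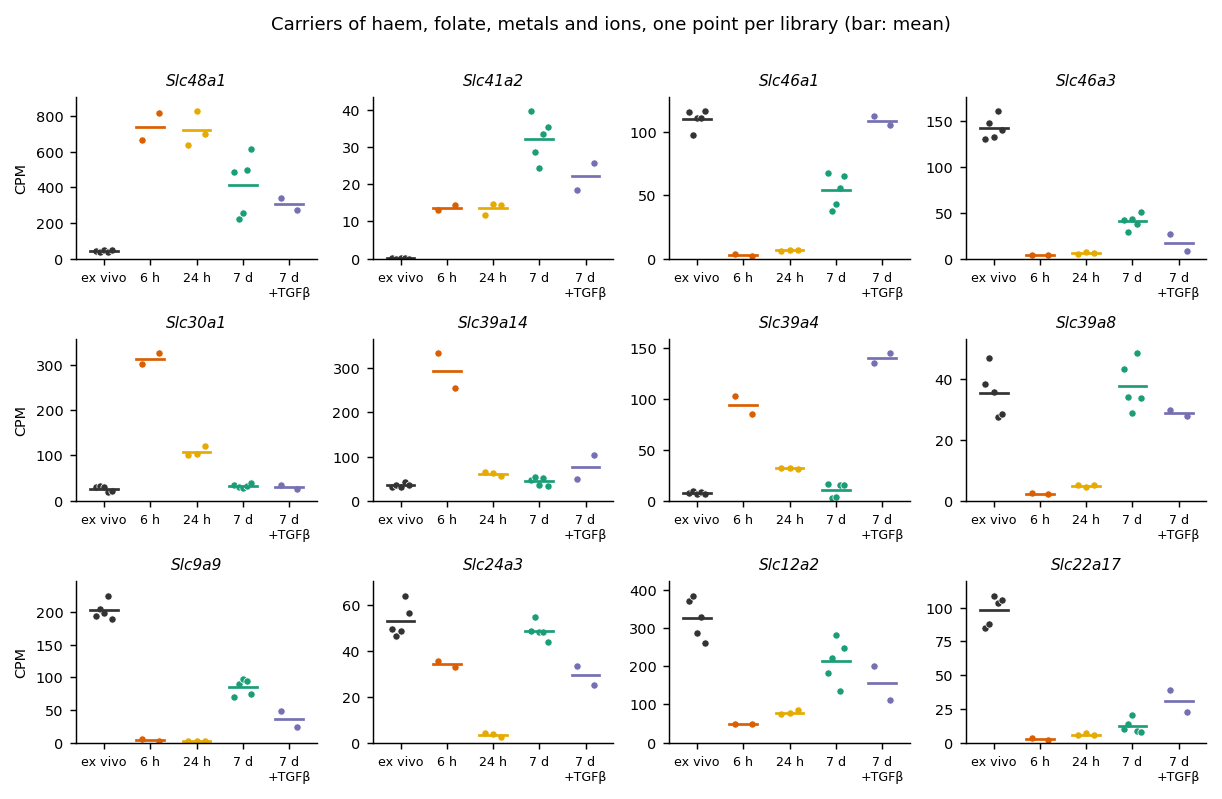
CPM of 12 carriers of haem, folate, metals, ions and organic ions in each microglial library (points, with group means as bars; vertical axes start at 0). Slc46a1, Slc46a3, Slc39a8 and Slc9a9 were under 10 CPM at 6 h and 24 h and above that at 7 d, whereas Slc30a1 and Slc39a14 peaked in the 2 libraries at 6 h.

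Mitochondrial carriers of family Slc25 moved in both directions, with 17 of 35 higher and 9 lower at 7 d, beside 34.8% and 35.7% of all genes. Slc25a37 (mitoferrin-1), which imports iron into mitochondria, was 298, 385, 335, 332 and 350.1 CPM ex vivo, 66.2 and 65.7 CPM at 6 h, 77.2, 81.7 and 62.8 CPM at 24 h and 102, 54.99, 51.6, 68.2 and 68.1 CPM at 7 d. Every culture library without TGFβ lay below every ex vivo library (-2.30 ± 0.16 at 7 d, edgeR adjusted p = 1.9e-09). Slc25a24, an ATP-magnesium/phosphate carrier, was 0.0464, 1.25, 0.766, 0.0716 and 0.167 CPM ex vivo and 3.03, 2.43 and 1.72 CPM at 24 h, and reached 26.2, 37.8, 22.5, 26.3 and 14.04 CPM at 7 d, above all earlier libraries (3.40 ± 0.61 against 24 h, edgeR adjusted p = 2.8e-04). Slc25a33, a pyrimidine nucleotide carrier, rose from 7.98, 5.81, 7.01, 6.95 and 6.11 CPM ex vivo to 39.4 and 44.6 CPM at 6 h (2.63 ± 0.25, edgeR adjusted p = 6.4e-08) and was not called at 7 d (-0.31 ± 0.20). Carriers of fuel metabolites were among the risers. Slc25a20, which brings acyl-carnitines to fatty acid oxidation, was 9.05, 8.13, 10.8, 8.02 and 7.67 CPM ex vivo and 34.5, 37.4, 36.7, 32.6 and 31.96 CPM at 7 d (1.98 ± 0.12, edgeR adjusted p = 3.5e-10). Slc25a1, which exports citrate, was 27.3, 21.5, 22.9, 25.3 and 31.02 CPM ex vivo and 62.7, 56.7, 69.2, 73.5 and 68.4 CPM at 7 d (1.37 ± 0.12, edgeR adjusted p = 4.0e-08). Slc25a39, which imports glutathione, was 51.5, 31.7, 49.7, 37.5 and 50.1 CPM ex vivo and 119.6, 110.4, 124, 123 and 118 CPM at 7 d (1.43 ± 0.12, edgeR adjusted p = 2.9e-08). In none of the 3 did a 7 d library overlap the ex vivo range. Slc25a45 fell, from 166, 205, 208, 164 and 181 CPM ex vivo to 76.7, 60.03, 71.3, 92.2 and 77.4 CPM at 7 d (-1.29 ± 0.12, edgeR adjusted p = 8.4e-08). The phosphate carrier Slc25a3 was higher at 7 d (329.9 ± 52.2 CPM, n = 5, against 125 ± 10.2 CPM ex vivo, mean ± SD, n = 5; 1.41 ± 0.11, edgeR adjusted p = 1.0e-08). The adenine nucleotide carrier Slc25a5 was not called at 7 d (0.42 ± 0.19), and its count is uncertain because near-identical copies lie elsewhere in the genome.

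Of 14 members of the sugar carrier families 9 were lower at 6 h and 8 at 7 d, beside 36.8% and 35.7% of all genes. Those lower at 7 d include the pseudogene Slc2a4rg-ps, and 2 members were higher at each time. Of those higher at 7 d was Slc37a2, an exchanger of glucose 6-phosphate for phosphate in the endoplasmic reticulum. It was 215, 222, 209.5, 259 and 268 CPM ex vivo, 268, 326 and 294 CPM at 24 h and 584, 607, 669, 585 and 522 CPM at 7 d. The 7 d libraries lay above all others, and the log2 fold change against ex vivo was 1.34 ± 0.12 (edgeR adjusted p = 3.2e-08). Slc2a8 (GLUT8), a glucose carrier of intracellular membranes, fell from 54.2, 48.8, 53.6, 59.02 and 58.5 CPM ex vivo to 1.49 and 1.84 CPM at 6 h, and stood at 6.53, 6.91 and 5.03 CPM at 24 h and 23.9, 30.7, 39.6, 22.3 and 29.3 CPM at 7 d. The 4 groups did not overlap (-5.04 ± 0.27 at 6 h, edgeR adjusted p = 1.0e-10). Slc45a3, a sugar carrier of low level ex vivo (1.67, 0.813, 0.443, 2.51 and 0.667 CPM), had a peak of 53.7 and 41.4 CPM at 6 h and stood at 13.6, 10.9, 9.81, 10.4 and 12.2 CPM at 7 d (5.32 ± 0.39 at 6 h, edgeR adjusted p = 4.1e-09). Slc5a10 (SGLT5), a sodium-coupled sugar carrier, was 5.71, 4.56, 5.56, 5.16 and 3.61 CPM ex vivo, 21.7 and 31.1 CPM at 6 h and at most 1.19 CPM in any later library.

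The promoter of Slc37a2 is printed as a case in which the ATAC peak before the start and the RNA went apart. This concerns the window alone. Within 10 kb of the gene body the pooled lists had 6 ATAC peaks ex vivo, 4 of them only there, and 7 at 7 d, 5 of them only there. The printed window is the 250 bases before the RefSeq start (GRCm38.p6), 5′ to 3′ on the minus strand, chr9:37255739-37255988, with the 75 bases under the ex vivo ATAC peak in capitals. Of the window, 64 bases lie under an ex vivo PU.1 peak. The 7 d ATAC list has no peak in the window, although H3K27ac peaks cover all 250 bases at both times and the RNA was higher at 7 d.
Slc37a2: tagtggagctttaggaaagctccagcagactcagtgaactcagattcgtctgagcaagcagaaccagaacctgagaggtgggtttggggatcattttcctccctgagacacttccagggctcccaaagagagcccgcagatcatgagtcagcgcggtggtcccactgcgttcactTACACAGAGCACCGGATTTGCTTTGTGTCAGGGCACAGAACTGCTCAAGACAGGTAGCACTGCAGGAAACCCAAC

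Among carriers of acids and lipids, Slc16a6 (MCT7) fell and stayed low, from 539, 598, 476, 536 and 474 CPM ex vivo to 95.1 and 81.2 CPM at 6 h, 65.8, 74.9 and 85.5 CPM at 24 h and 82.9, 99.1, 94.4, 73.7 and 86.97 CPM at 7 d. No culture library came near the ex vivo range (-2.59 ± 0.13 at 7 d, edgeR adjusted p = 2.7e-11). Slc27a1 (FATP1), which takes up fatty acids, dipped and then rose: 34.4, 27.8, 34.02, 33.5 and 38.5 CPM ex vivo, 7.86 and 6.38 CPM at 6 h, 23.9, 19.2 and 14.3 CPM at 24 h and 95.98, 94.9, 96.1, 71.6 and 77.5 CPM at 7 d. The 4 groups did not overlap, with log2 fold changes of -2.24 ± 0.21 at 6 h (edgeR adjusted p = 7.6e-08) and 1.37 ± 0.14 at 7 d (edgeR adjusted p = 1.8e-07). Slc13a3 (NaDC3), a sodium-driven carrier of dicarboxylates, was 28.5, 26.3, 25.8, 32.5 and 35.1 CPM ex vivo, 4.95, 4.69 and 3.52 CPM at 24 h and, with a wide spread, 51.2, 16.1, 15.3, 83.4 and 24.2 CPM at 7 d, lowest in libraries 2 and 3 (0.36 ± 0.37 against ex vivo, not called). Slc10a7, of the bile acid carrier family, fell at 6 h (-1.89 ± 0.17, edgeR adjusted p = 5.4e-08) and was higher than ex vivo at 7 d (0.57 ± 0.12, edgeR adjusted p = 3.4e-04).

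Vitamin and nucleoside carriers went apart. Slc23a2 (SVCT2), which takes up ascorbate, was 228, 268, 207, 322 and 266 CPM ex vivo, 1729 and 1297 CPM at 6 h, 444, 382 and 449 CPM at 24 h and 455, 477, 493, 413 and 507 CPM at 7 d. The 6 h libraries stood well above the rest, and all later libraries above ex vivo (2.55 ± 0.15 at 6 h, edgeR adjusted p = 3.8e-10). Slc29a3 (ENT3), which releases nucleosides from lysosomes, fell from 757, 811, 718, 626 and 673 CPM ex vivo to 296 and 279 CPM at 6 h, 233, 239 and 270.4 CPM at 24 h and 136, 81.4, 98.1, 113 and 136 CPM at 7 d. These 4 groups did not overlap (-2.67 ± 0.16 at 7 d, edgeR adjusted p = 2.5e-10). Folate and thiamine carriers of family Slc19 went in opposite directions: Slc19a1, the reduced folate carrier, was 22.2, 21.1, 23.2, 28.6 and 27.9 CPM ex vivo and 8.17, 11.004, 11.4, 7.68 and 7.17 CPM at 7 d (-1.44 ± 0.16, edgeR adjusted p = 4.0e-07). The thiamine carrier Slc19a2 was 5.71, 9.19, 7.22, 4.87 and 4.84 CPM ex vivo and 29.9, 19.5, 16.7, 28.9 and 37.7 CPM at 7 d (2.06 ± 0.23, edgeR adjusted p = 4.7e-07). The same held within family Slc44. The choline carrier Slc44a1 rose from 22.6, 23.9, 20.8, 29.6 and 30.5 CPM ex vivo to 98.8, 64.002, 78.01, 86.4 and 94.6 CPM at 7 d without overlap (1.73 ± 0.15, edgeR adjusted p = 2.7e-08). Slc44a2, its relative, fell from 299, 341, 347, 463 and 389 CPM ex vivo to 43.5, 45.3 and 44.4 CPM at 24 h and 70.8, 88.7, 90.8, 65.9 and 72.6 CPM at 7 d (-2.24 ± 0.13 at 7 d, edgeR adjusted p = 2.4e-10). The riboflavin carrier Slc52a2 was not called at 7 d (-0.02 ± 0.13).

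Organic ion carriers went in opposite directions. Slc22a17, known as a receptor for lipocalin-2, was 85.04, 87.6, 109, 104 and 106 CPM ex vivo, 3.28 and 2.07 CPM at 6 h and 10.4, 13.8, 20.6, 8.67 and 7.55 CPM at 7 d, while Slc22a4 (OCTN1), which takes up ergothioneine, was 1.44, 1.63, 1.13, 1.00 and 0.889 CPM ex vivo, 88.1 and 93.01 CPM at 6 h and 11.01, 6.99, 6.95, 7.52 and 16.3 CPM at 7 d. In neither did a culture library overlap the ex vivo range. The log2 fold changes at 6 h were -5.19 ± 0.42 for Slc22a17 (edgeR adjusted p = 1.6e-08) and 6.21 ± 0.29 for Slc22a4 (edgeR adjusted p = 1.5e-11).

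Of 20 members of family Slc35, the family of nucleotide sugar carriers, 3 were higher and 13 lower at 6 h, beside 31.2% and 36.8% of all genes. At 7 d 6 were higher and 7 lower. Slc35c1, which brings GDP-fucose into the Golgi, went from 64.9, 72.8, 69.3, 85.5 and 85.6 CPM ex vivo to 9.50 and 13.6 CPM at 6 h and 41.5, 51.4 and 40.4 CPM at 24 h, and Slc33a1, which brings acetyl-CoA into the endoplasmic reticulum, from 43.7, 65.9, 57.5, 48.8 and 39.97 to 8.20 and 6.26 and 46.7, 44.4 and 48.3 CPM. The 6 h libraries of both lay below every other library, with log2 fold changes of -2.71 ± 0.20 (edgeR adjusted p = 3.0e-09) and -2.82 ± 0.22 (edgeR adjusted p = 6.4e-09). Slc18b1, a vesicular polyamine carrier, fell further, to 0.497 and 1.32 CPM at 6 h from 28.5, 40.2, 38.9, 37.2 and 28.2 CPM ex vivo, and was 18.8, 20.3, 18.98, 15.8 and 18.6 CPM at 7 d (2.07 ± 0.24 against 24 h, edgeR adjusted p = 4.1e-06). Slc35f6 and Slc35e4 rose at 6 h (2.01 ± 0.18, edgeR adjusted p = 3.5e-08, and 3.48 ± 0.26, edgeR adjusted p = 4.6e-09), as did the phosphate carrier Slc20a1 (PiT1; 1.87 ± 0.25, edgeR adjusted p = 5.3e-06).

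TGFβ, a growth factor on which brain microglia depend, was followed by fewer changes. Between the 2 libraries with TGFβ and the 5 without at 7 d, 27 members were higher and 13 lower, 14.8% and 7.10%, beside 9.57% and 6.52% of all genes tested and 10.9% and 7.38% of those at 5 CPM. The split depends on scaling, with 67.5% of the calls higher here, 53.7% with column totals (22 higher, 19 lower) and 46.3% with TPM (19 higher, 22 lower). Without TGFβ replicate 2 there were 17 higher and 3 lower, and without 7 d libraries 2 and 3 there were 29 higher and 20 lower. The rule itself favours higher levels with TGFβ for 5 members that passed it only through that group: Slc2a6, Slc35g1, Slc6a12, Slc7a2 and Slc7a4. Of the 155 members at 5 CPM or more in both groups 23 were higher and 10 lower. Among the 130 at that level in all 5 groups they were 17 and 7, 13.1% and 5.38%. The shares of all genes held to these levels were not computed, so these counts have no like background. For the 130 the median log2 fold change was 0.04, beside -0.04 for the genes of the same level. Of the 32 amino acid and peptide carriers, which include Slc6a12, Slc7a2 and Slc7a4, 9 were higher and 1, Slc3a2, was lower.

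With TGFβ Slc25a37, mitoferrin-1, was 313 and 358 CPM, above every other culture library and within the ex vivo range (2.28 ± 0.19 against 7 d, edgeR adjusted p = 2.7e-07, and -0.02 ± 0.20 against ex vivo, not called). Slc46a1 was 113 and 105 CPM, also above every other culture library and within the ex vivo range (1.01 ± 0.20 against 7 d, edgeR adjusted p = 0.0015). Slc46a3 and Slc9a9, which had partly returned at 7 d without TGFβ, were lower with it: 26.4 and 8.11 CPM and 49.1 and 24.4 CPM. The border macrophage list was lower too, at 6.45 to 6.61 CPM with Lyve1 at 0, and its part here was not tested. Both calls (-1.24 ± 0.32, edgeR adjusted p = 0.014, and -1.22 ± 0.26, edgeR adjusted p = 0.0038) were lost without TGFβ replicate 2, with adjusted p = 0.2 and 0.11. That of Slc46a3 was also lost when only these 2 groups were fitted (adjusted p = 0.11) and with the replicate number as a block (adjusted p = 0.051).

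Single carriers of sugar, zinc and amino acids were also higher with TGFβ. Of the 14 members of the sugar carrier families 2 were higher and 1 lower than at 7 d without it. Of the 18 zinc carriers 3 were higher and 2 lower, beside 9.57% and 6.52% of all genes. Slc2a6 (GLUT6), a sugar carrier of lysosomes in macrophages, was 51.5 and 78.5 CPM against 2.14, 3.70, 3.27, 2.93 and 0.896 CPM without TGFβ and 1.76, 2.00, 2.98, 4.87 and 2.83 CPM ex vivo. It was a member only through the TGFβ group, so that its difference belongs to the rule (4.64 ± 0.39). Slc39a4 was 136 and 145 CPM, above all other libraries, those at 6 h included (3.74 ± 0.48 against 7 d, edgeR adjusted p = 5.4e-05). Slc38a10 was 515 and 443 CPM, above every other microglial library (0.98 ± 0.15, edgeR adjusted p = 1.4e-04). Slc7a6 was 80.2 and 98.2 CPM against 52.1, 37.3, 34.7, 44.5 and 43.3 CPM at 7 d (1.07 ± 0.17, edgeR adjusted p = 3.4e-04), and Slc38a2 was 427 and 434 CPM, above all 7 d libraries (1.27 ± 0.28, edgeR adjusted p = 0.0046). The call of Slc38a2 was lost when only these 2 groups were fitted (adjusted p = 0.065). Slc38a1 (SNAT1), its relative, was 289 and 247 CPM, above every other microglial library (0.95 ± 0.13, edgeR adjusted p = 4.8e-05).

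In the other direction, Slc13a3 was 1.69 and 2.02 CPM with TGFβ, below every library without it (-4.35 ± 0.66, edgeR adjusted p = 2.5e-04). Slc37a2 was 322 and 334 CPM, below all 7 d libraries (-0.86 ± 0.16, edgeR adjusted p = 0.0012). Slc3a2 was 347 and 312 CPM (-0.73 ± 0.16, edgeR adjusted p = 0.0042), close to the ex vivo libraries and not called against them (0.23 ± 0.15), a difference from 7 d that was lost without TGFβ replicate 2 (adjusted p = 0.11). Slc16a6 and Slc29a3 stayed at their low culture levels, at 119 and 86.3 CPM and 176 and 115 CPM, neither called against 7 d (0.23 ± 0.16 and 0.37 ± 0.19). Slc6a6, at 1538 and 1288 CPM, and Slc43a2, at 615 and 285 CPM, were not called either (0.18 ± 0.27 and -0.37 ± 0.32). Against ex vivo the TGFβ cultures had 60 members higher and 58 lower, beside 28.3% and 27.5% of all genes and 33.1% and 27.2% of those at 5 CPM, with 50.8% of the calls higher and 32.8% on TPM. This comparison and that of 7 d with ex vivo share the ex vivo libraries.

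**Figure D4:**
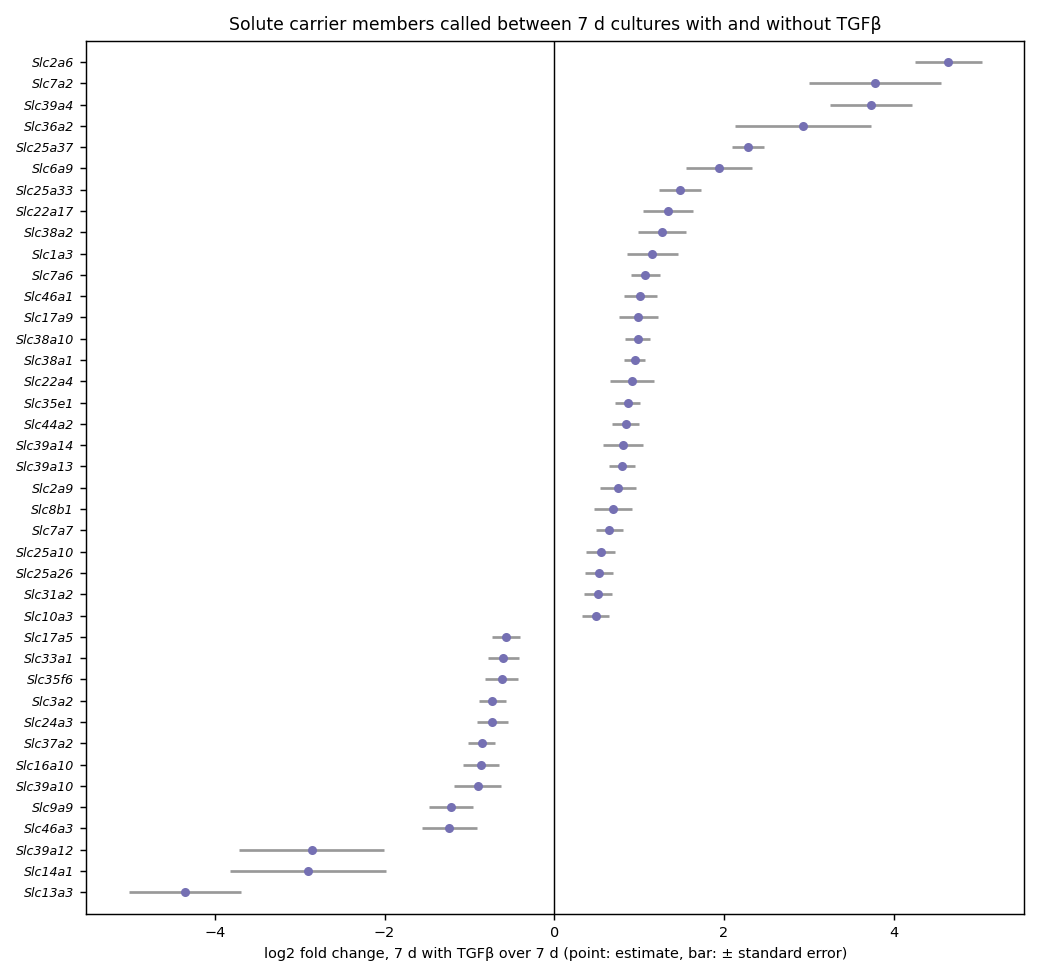
Log2 fold change (point) with its standard error (bar) of the 40 members called between 7 d cultures with TGFβ (2 libraries) and without it (5 libraries). The highest is Slc2a6 at 4.64, a member only through the TGFβ group, so that its difference belongs to the rule. The lowest is Slc13a3 at -4.35.

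Ex vivo microglia were compared with whole brain lysate, which holds RNA of all brain cells. In the comparison of ex vivo microglia with lysate, fitted on its own 9 libraries and 15335 genes, 109 members were higher in microglia and 52 lower, beside 39.1% and 43.5% of all genes, and 52.3% and 27.4% of the genes at 5 CPM in a microglial group. The rule asks for a level in microglia and so favours the first direction. In bulk samples fewer cells of a type and less RNA per cell cannot be told apart. Scaled for this comparison, Slc7a7 was 189, 185, 177, 229 and 228 CPM ex vivo and 2.72, 2.77, 2.34 and 2.40 CPM in lysate. Slc37a2 was 248, 258, 242, 302 and 315 CPM ex vivo and 3.49, 2.22, 3.92 and 3.59 CPM in lysate. Slc29a3 was 876, 941, 829.8, 730.5 and 791 CPM ex vivo and 10.4, 11.4, 15.2 and 18.5 CPM in lysate. These 3 are among the members with the widest gap in favour of microglia (6.29 ± 0.16, 6.38 ± 0.21 and 5.91 ± 0.22). Of the members that rose in culture, Slc48a1 (-1.56 ± 0.14), Slc6a8 (-2.94 ± 0.18), Slc22a4 (-1.93 ± 0.25), Slc35e4 (-1.81 ± 0.22) and Slc41a2 were lower in ex vivo microglia than in lysate, each called by edgeR. Slc41a2 was 21.9, 22.5, 26.9 and 22.7 CPM in lysate and at most 0.186 CPM ex vivo. Other members that rose in culture had the higher mean ex vivo. Slc3a2 had a mean of 326 CPM ex vivo and 99.2 CPM in lysate, and Slc43a2 303 and 86.5 CPM. For Slc6a6 the means were 411 and 173 CPM, and for Slc15a3 249 and 3.83 CPM. Slc16a10 and Slc37a2 were also higher ex vivo. Members that rose were not counted by their direction against lysate. At 7 d the neuron, astrocyte and oligodendrocyte marker lists summed to at most 0.923, 6.50 and 12.6 CPM, with 3 of 6, 1 of 6 and 1 of 5 markers at 0, against at least 10004, 1115 and 3862 CPM in lysate. The endothelial list summed to 10.5 to 35.98 CPM at 7 d, with 1 of 5 markers, Cldn5, at 0, against 3.52 to 5.20 CPM ex vivo and 115 to 196 CPM in lysate, and its part in these levels was not tested. Slc1a2 was 2858, 2845, 3824 and 4470.2 CPM in lysate, and Slc1a3 was lower ex vivo than in lysate (-1.01 ± 0.16, edgeR adjusted p = 6.9e-05).

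Related genes outside the symbol rule gave the setting. Of 28 carriers under other symbols 22 were tested, with 7 higher and 9 lower at 6 h, 9 and 5 at 24 h and 14 and 5 at 7 d than ex vivo, beside 34.8% and 35.7% of all genes at 7 d. The genes named from these lists were chosen after their values were seen. Among the carriers the mitochondrial uncoupling protein Ucp2 went from a mean of 361 CPM ex vivo to 1161 CPM at 7 d (1.69 ± 0.21, edgeR adjusted p = 1.8e-06) and the sphingosine 1-phosphate carrier Spns2 from 73.8 to 0.225 CPM (-8.31 ± 0.38, edgeR adjusted p = 1.7e-11). Of 21 genes by which amino acids at the lysosome control the kinase mTORC1, 20 were tested, with 8 higher and 5 lower at 6 h, 10 and 5 at 24 h and, beside the same shares of all genes, 11 and 6 at 7 d. The small GTPase gene Rragd rose from 2.58 to 70.5 CPM (4.77 ± 0.27, edgeR adjusted p = 1.5e-10), and Fnip2, of the same pathway, from 116 to 547 CPM (2.24 ± 0.19, edgeR adjusted p = 1.7e-08). Within the sestrin family Sesn1 fell from 165 to 85.4 CPM (-0.95 ± 0.15, edgeR adjusted p = 2.3e-05), and Sesn2, known as a leucine sensor, rose from 15.05 to 31.9 CPM (1.08 ± 0.16, edgeR adjusted p = 1.0e-05).

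Chromatin lists, 1 pooled list per assay and condition, give no replicate check and are described only. Within 10 kb of the gene body, 57 of the 74 members lower at 7 d had fewer bases under H3K27ac peaks at 7 d than ex vivo, 77%, beside 77.8% of all genes lower at 7 d. Of the 60 members higher at 7 d, 30 had more and 28 fewer bases, and the share with more was 50%, beside 42.3% of all genes higher at 7 d. Over all 183 members 65.6% had fewer bases, beside 65.7% of all genes tested. The last pair of shares lies within 1 percentage point. PU.1, the factor that defines macrophage enhancers, had an ex vivo peak in this window at 174 of 183 members, beside 95.8% of all genes tested.

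Single members differed widely. At Slc1a3 (chr15:8634124-8710807, mm10) the H3K27ac-covered length went from 27771 bases ex vivo to 4745 at 7 d. At Slc9a9 (chr9:94669557-95230453) it went from 30527 to 12732 bases, and at Slc29a3 (chr10:60712072-60752849) from 29961 to 14507 bases. In the other direction, Slc16a10 (chr10:40033532-40142270) went from 8785 to 27554 bases, Slc37a2 (chr9:37229149-37255738) from 10056 to 20941 bases and Slc41a2 from 0 to 8925 bases. In these 6 genes RNA and covered length changed in the same direction. At Slc43a2, Slc6a6 and Slc3a2, whose RNA rose, the length was 23313 and 24644, 17936 and 19680, and 7097 and 5666 bases ex vivo and at 7 d. Of these, Slc3a2 had the shorter length at 7 d.

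**Figure D5:**
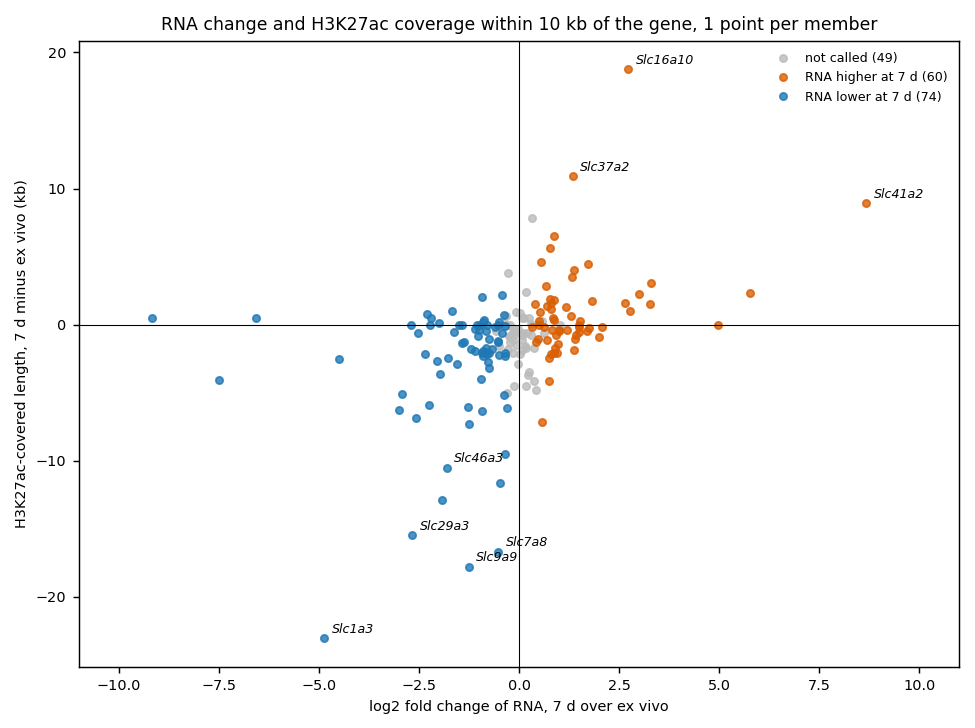
Each point is 1 of 183 members, with the log2 fold change of RNA at 7 d over ex vivo on the horizontal axis and the H3K27ac-covered length within 10 kb of the gene at 7 d minus ex vivo, in kb, on the vertical axis. Slc16a10 and Slc37a2 gained the most covered length and Slc1a3 lost the most, and many called members lie close to 0.

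Short motifs were searched on both strands of the 300 bases from 250 before to 50 after each RefSeq start, which the table gives for 137 of 183 members (189 promoters). Shares are of promoters and not of genes. Overlapping promoters of 1 gene, such as those of Slc12a7 and Slc25a14, can count 1 match more than once. CACGTG, the E-box bound by MYC, USF and TFEB family factors, was in 14.3% of members' promoters, 9.82% of promoters of genes tested and 7.15% of all promoters in the table. TGACNNNGC, the core of the antioxidant response element, was in 21.2%, 14.5% and 12.4%. GAGGAA, the core that PU.1 and other ETS factors bind, was in 20.6%, 27.1% and 28.3%. TGATGNAAN, the amino acid response element, was in 2.65%, 2.37% and 3.95%. Matches of 2 motifs overlapped in 1 promoter, CACGTG with TGACNNNGC. A match is a description of the letters and not of a bound site.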

How the data were processed

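Whole-number read counts for 24537 gene symbols in 21 RNA libraries were used as deposited, and every column matched a sample. The TPM table, which the authors deposited beside them, served as an alternative. Peak lists (start and end positions, mm10) came from HOMER on 1 pooled tag directory per assay and condition, per the file headers. STAR, Bowtie2, HOMER, bedtools, limma and R 3.3.1 appear with mm10 and hg38 in the submitters' processing notes, without roles. A model of group means was fitted to the counts of the 17 microglial libraries with edgeR 4.0.16 (R 4.3.3; TMM, filterByExpr, robust quasi-likelihood), and a second to 9 libraries for lysate. Standard errors are the log2 fold change over the square root of F. The procedure was tested on simulated data. Members, roles, gene lists and rules were chosen with earlier results of these data known. The rule named, per culture comparison, the 6 largest rises and falls among called members (20 CPM or more in the group with more, libraries not overlapping), the 2 most abundant not called, the most abundant of each role, and 20 fixed members, 58 together; 16 others were added after their values were seen (Slc7a1, Slc36a1, Slc38a9, Slc38a1, Slc31a1, Slc12a9, Slc8a1, Slc4a2, Slc2a8, Slc44a2, Slc25a20, Slc25a39, Slc25a45, Slc25a1, Slc19a1 and Slc19a2). Some items of these lists are not reported here. Promoters and gene positions are from RefSeq, GRCm38.p6. Alternatives were other scalings and filters, TPM, DESeq2, leaving out libraries and a replicate block.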

Additional observations from a re-analysis of the deposited data

Results flagged for a closer look

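Of 222 groups of values checked (74 members in the ex vivo, 7 d and lysate libraries), 6 held a library far from the others by Dixon's criterion, which chance alone flags in about 1 of 20 groups. Slc7a5 was 143 CPM in ex vivo replicate 4, against 81.1 to 97.3 CPM in the other ex vivo libraries. Slc7a1 was 48.8 CPM in the same library, against 24.4 to 26.95 CPM. Slc52a2 was 15.8 CPM in ex vivo replicate 2, against 21.9 to 23.2 CPM. Slc1a2 was 109 CPM in ex vivo replicate 3, against 0.445 to 20.3 CPM, in the library with the highest astrocyte markers. In lysate, scaled for that comparison, Slc6a8 was 150 CPM in replicate 4, against 113 to 117 CPM, and Slc41a2 was 26.9 CPM in replicate 3, against 21.9 to 22.7 CPM.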

How the results depend on the processing

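Column totals as library sizes were chosen after the data were seen; the other alternatives were planned. Members higher at 24 h than at 6 h numbered 52, but 93 on column totals and 82 on TPM with a pseudocount of 0.1, and members lower 46, but 23 on column totals and 28, 27 and 27 on TPM with pseudocounts of 1 and 0.1 and with no filter. With TGFβ against 7 d, 27 higher became 16 on TPM without a filter, and 13 lower became 6 with only these 2 groups, 7 with the replicate block, 20 without 7 d replicates 2 and 3, and 22, 22 and 21 on TPM (pseudocounts of 1, 0.1, no filter). With TGFβ against ex vivo 60 higher became 38 on TPM without a filter. Of the 74 members lower at 7 d, 21 had fewer ATAC peaks, 28.4% beside 30.3% of all genes lower at 7 d, and 34 had more. With no extension of the gene body 13 had fewer. Leaving out 1 library gave 17 to 26 higher and 3 to 14 lower with TGFβ against 7 d, both lowest without TGFβ replicate 2. The other counts stayed within 1.5 times of the main value. Slc39a1 at 24 h against 6 h turned from -0.37 to 0.0658 on column totals, and Slc43a3 at 7 d against ex vivo to -1.18 without 7 d replicates 2 and 3; no other direction of a called value turned among the 74 members under the alternatives run. The cause of these shifts was not tested. Replicate numbers were not used to pair the libraries in the main model. Same-numbered libraries of different groups deviated together with r of -0.14 to 0.38 (median -0.0066, 5 of 25 pairs over 0.1). Libraries with different numbers gave r of -0.42 to 0.42 (median 0.0051, 6 of 86 pairs over 0.1). Same-numbered pairs gave 0.24 and 0.23 between 24 h and 6 h, and 0.11 and 0.38 between TGFβ and 7 d. Whether the numbers mark a shared origin was not tested. The replicate block ended 18 and added 8 calls on single members. Groups of 2 libraries (6 h, TGFβ) and low counts ex vivo limit precision. Promoter windows were searched for 137 members only.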
